A study of Mus musculus with 2 samples.

Results

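Transcripts of 9 regulators of head and pharyngeal muscle were followed: Isl1, Tbx1, Msc, Tcf21, Lhx2, Myf5, Myod1, Myog and Pax7. They were chosen by symbol, as 9 of the 32285 features counted, and were read in cells with 2001 to 8999 genes and less than 10% mitochondrial transcripts. All 9 were detected in both libraries. The cells came from mouse embryos at E13.5 and were sorted for eYFP, which marks cells that expressed Cre from the Isl1 promoter and their descendants. The purity of the sort was not tested. The control genotype was Isl1-Cre;R26R-eYFP, and the mutant genotype was Isl1-Cre;R26R-eYFP;Pik3caH1047R, in which Cre removes a stop cassette and turns on an activated form of the PI3-kinase subunit Pik3ca. The groups share Isl1-Cre and the eYFP reporter, and the tissue, labelled pharyngeal arch, was the body above the liver. There was 1 library per genotype, made from 3 pooled embryos and sequenced with the 10x Genomics 5′ assay, which gives every captured transcript a unique molecular identifier (UMI). Differences between embryos therefore cannot be told apart from differences between genotypes, no test between genotypes was possible, and every interval below is a 95% interval for counting error alone.

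Muscles of the jaw, face, pharynx and larynx arise from pharyngeal mesoderm, and their earliest regulators differ from those of trunk and limb. Tbx1 (a T-box factor), Isl1 and Lhx2 (LIM-homeodomain factors), and Msc and Tcf21 (bHLH proteins also called MyoR and capsulin) act in that mesoderm ahead of the muscle bHLH factors. Myf5 and Myod1 then commit cells to the muscle fate, Myog drives them into differentiation, and Pax7 marks the progenitors kept in reserve. Isl1 also specifies motor and sensory neurons and second heart field cells, Tcf21 marks epicardium, lung and pharyngeal mesenchyme, Tbx1 is used in pharyngeal endoderm and lymphatic endothelium, and Lhx2 in forebrain and other neurons.

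The muscle bHLH factors pair with E proteins on the E-box CANNTG, so the 250 bases before the start of each gene were read for it in the RefSeq promoters of build GRCm38.p6. A window was found for 7 of the 9 genes, 9 windows in all because Tbx1 and Lhx2 had a pair each, and Msc and Myod1 had none. Shown 5′ to 3′ along the gene are the windows of Myf5, Myog and Isl1, the earliest and the latest of the genes along differentiation in these cells and the one with the least difference between its ends. Capitals mark CANNTG.
Myf5, chr10:107486135-107486384, minus strand: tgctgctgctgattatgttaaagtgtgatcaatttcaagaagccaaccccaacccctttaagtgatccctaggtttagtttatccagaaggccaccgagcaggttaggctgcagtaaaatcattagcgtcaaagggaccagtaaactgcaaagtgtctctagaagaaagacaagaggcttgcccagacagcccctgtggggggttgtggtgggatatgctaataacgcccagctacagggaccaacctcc
Myog, chr1:134289754-134290003, plus strand: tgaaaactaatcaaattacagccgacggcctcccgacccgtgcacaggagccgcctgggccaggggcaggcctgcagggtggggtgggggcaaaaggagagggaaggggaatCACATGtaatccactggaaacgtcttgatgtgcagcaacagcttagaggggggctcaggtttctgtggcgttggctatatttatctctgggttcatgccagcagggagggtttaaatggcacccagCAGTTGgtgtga
Isl1, chr13:116309689-116309938, minus strand: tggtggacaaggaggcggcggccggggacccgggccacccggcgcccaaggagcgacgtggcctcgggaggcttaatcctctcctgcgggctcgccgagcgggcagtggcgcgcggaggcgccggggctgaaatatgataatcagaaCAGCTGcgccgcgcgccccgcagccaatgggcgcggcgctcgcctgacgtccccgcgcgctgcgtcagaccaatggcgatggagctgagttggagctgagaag
Myog held 2 E-boxes, CACATG with its first base 138 bases before the start and CAGTTG at 12. Isl1 held 1 E-box, CAGCTG at 103, and the Myf5 window held none. CANNTG occurred in 3 of the 9 windows (the other was CATGTG at 138 in 1 window of Tbx1) against 66.2% of all 32817 windows, and CAGCTG in 1 of 9 against 13.01%. Neither TAATTA, a core bound by LIM-homeodomain proteins (4.85% of all windows), nor AGGTGTGA, bound by T-box proteins (1.12%), occurred in any of the 9; both strands were read, and CAGCTG is counted within CANNTG as well. These are matches of letters and no evidence of binding.

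After the filter there were 2783 control cells with a median of 20412 UMIs and 3489 mutant cells with a median of 16839. The sexes of the embryos were not balanced: judged from Xist and genes of the Y chromosome, female-like cells were 95.5% of the control and 33.6% of the mutant library, and 53.3% of the latter were male-like. The filtered libraries shared 12 cell barcodes. Clusters were built without the 9 genes and named from their markers or, for the Adh1-led and blood-led classes, from leading genes. Classes with at least 50 cells in a library are described. This leaves out hepatoblast-like cells (47, in the mutant library only), smooth muscle-like cells (38 control, 26 mutant) and mutant neural crest-like cells (24). Levels are UMIs of a gene per 1000000 UMIs of a class (CPM) and are compared between classes and libraries for 1 gene at a time. The muscle-like class held 884 control cells (31.8% of the library, 30.0 to 33.5) and 842 mutant cells (24.1%, 22.7 to 25.6), in 3 clusters. All 26 muscle markers were detected in it in both libraries. Cluster 5, with 281 control and 203 mutant cells, had 24 of the 26 raised and was led by Mylpf, Myh3 and Myog. Cluster 2, led by Msc, Pax7 and Myf5, and cluster 7, led by histone genes, had 4 and 6 of the 26 raised, so their name rests on fewer markers. Pik3ca itself stood at 31.4 CPM in control and 28.8 CPM in mutant muscle-like cells, and transcripts of the transgene were not counted apart from it.

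Of the 9 genes, 5 had their highest level in muscle-like cells in both libraries: Msc, Myf5, Myod1, Myog and Pax7. Between 92.1% and 97.1% of their UMIs lay in that class. Clustered more finely, at resolution 0.8, the count was 2, because a cluster led by Msc then had too few raised markers to be named muscle-like. With that cluster added, a choice made after seeing the data, it was 5. Msc, Myf5 and Pax7 are among the leading genes of that cluster, so this return was built into the choice and gives no support. With classes from marker counts the count was 2, and these 3 genes were highest in neural crest-like cells of both libraries. Myod1, which commits cells to muscle, stood at 409 CPM in control and 281 CPM in mutant muscle-like cells, and at no more than 12.3 CPM in any other class of at least 50 cells. That level, in control endothelium-like cells, had 35 of its 40 UMIs in 3 cells. Pax7 stood at 85.2 and 71.2 CPM, and its highest level elsewhere was 6.33 CPM, in control epithelium-like cells, where 3 cells held 21 of 26 UMIs. Msc stood at 274 and 230 CPM. Its highest level in another class of at least 50 cells was 17.5 CPM, in control neuron-like cells, from 70 UMIs of which 3 cells held 38. Myf5 stood at 51.4 and 66.2 CPM in muscle-like cells, against at most 2.48 CPM in another class of at least 50 cells. It had no UMI among the mesothelium-like cells of either library. Myog stood at 1182 and 683 CPM in muscle-like cells and reached 67.8 CPM in control endothelium-like cells. In that class 203 of its 220 UMIs lay in 3 of 147 cells, 199 of them in a single cell, and without those 3 cells its level was 5.24 CPM. The 47 hepatoblast-like mutant cells, too few to be described, held 35 UMIs of Msc, 8 of Myf5, 46 of Myod1, 123 of Myog and 6 of Pax7.

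**Figure D1:**
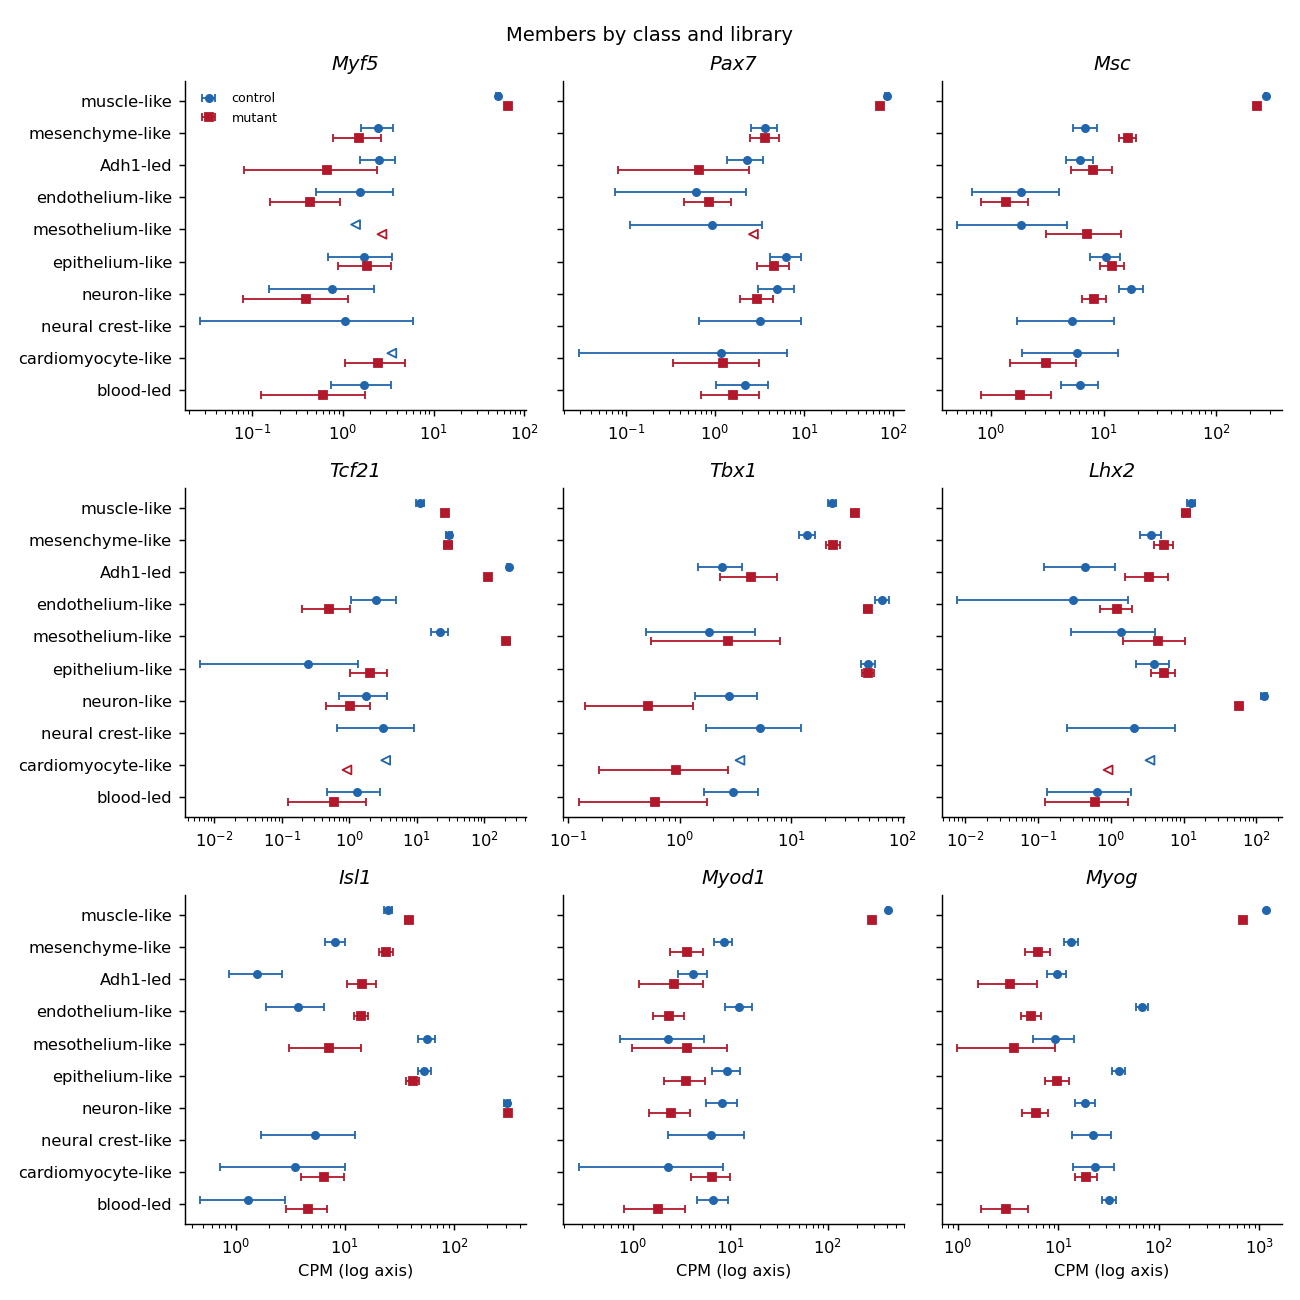
Level of each gene by class (rows) and library (control circles, mutant squares), in CPM on log axes; bars are 95% exact Poisson intervals, open triangles mark the highest level that 0 UMIs allow (3 counts), and neural crest-like mutant cells, under 50, are not drawn. Msc, Myf5, Myod1, Myog and Pax7 lie far to the right in the muscle-like row, while Isl1 and Lhx2 peak in neuron-like cells.

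The other 4 genes were highest outside muscle. Isl1 was highest in neuron-like cells, at 305 CPM in control and 314 CPM in mutant, and these held 54.0% and 62.4% of its UMIs. Its level in muscle-like cells was 24.7 and 38.3 CPM, against 53.3 and 41.6 CPM in epithelium-like cells, with intervals that overlap in the mutant library. Within the neurons it was uneven: cluster 10, led by Thsd7b and holding Neurod1 and Ppp1r17 among its leading genes, had 411 CPM in control and 569 CPM in mutant cells, while cluster 6, led by Igfbpl1, had 213 and 159 CPM. In cells reduced to 5000 UMIs each, so that depth is equal, an Isl1 UMI was found in 75.4% of control and 88.8% of mutant cells of cluster 10 but in 10.7% and 15.2% of muscle-like cells.

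Lhx2 was also highest in neuron-like cells, at 128 CPM in control and 57.7 CPM in mutant, and stood next in muscle-like cells, at 12.6 and 10.8 CPM. The control neuronal level rested on few cells, since 3 of 194 cells held 218 of 511 UMIs. Without the 3 highest cells of each library it was 73.3 and 48.2 CPM. In muscle-like cells reduced to 5000 UMIs, 5.29% of control and 4.52% of mutant cells had an Lhx2 UMI, against 0% and 0.588% in the blood-led class. That class carried macrophage and erythroid markers, whose levels differed between the libraries.

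Tbx1 was found in several tissues. It was highest in control endothelium-like cells (65.1 CPM) and, in the mutant library, about level in epithelium-like (48.8 CPM) and endothelium-like cells (48.2 CPM), whose intervals overlap. Muscle-like cells had 23.3 CPM in control and 36.9 CPM in mutant, but because they are many they held 47.1% and 38.2% of all Tbx1 UMIs. Mesenchyme-like cells had 13.8 and 23.9 CPM. Neuron-like, mesothelium-like and cardiomyocyte-like cells had at most 2.75 CPM.

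Tcf21 was highest in mesenchymal and mesothelial classes. In control it was highest in the class led by Adh1 and Wnt2 (229 CPM), where 56.1% of cells reduced to 5000 UMIs had a UMI of it. In the mutant library it was highest in mesothelium-like cells (213 CPM), with 114 CPM in the Adh1-led class. Mesenchyme-like cells had 30.0 and 29.4 CPM and muscle-like cells 11.2 and 26.3 CPM, so that muscle ranked behind mesenchyme in control, while in the mutant library the 2 intervals overlapped.

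Muscle-like cells were ordered by the share of their UMIs in 25 sarcomere genes, none of them among the 9, and divided into 5 bins at the quintiles of both libraries together. By this share bin 1 holds the least and bin 5 the most differentiated cells. The median share ran from 0.0546% to 2.00% in control and from 0.0568% to 2.62% in mutant cells. Actc1 alone carried 37.9% of the UMIs in that list. From bin 1 to bin 5, 2 of the 9 genes were higher by more than 1.5-fold with the whole interval (Myod1 and Myog), 6 were lower (Myf5, Msc, Pax7, Tcf21, Tbx1 and Lhx2) and Isl1 was neither, in each library. Over all genes with enough UMIs the same rule gave 11.0% higher and 18.9% lower in control, and 9.55% higher and 15.3% lower in mutant cells.

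The progenitor genes declined along the bins. Msc had 500, 444, 372, 177 and 16.2 CPM from bin 1 to bin 5 in control and 312, 320, 274, 99.4 and 25.05 CPM in mutant cells. Pax7 had 150, 135, 106, 66.6 and 6.06 CPM in control and 104, 90.3, 81.9, 35.9 and 7.73 CPM in mutant cells. Both were lower in bin 3 than in bin 1 and lost most of their level between bins 3 and 5. Myf5 declined as well, with 107, 96.6, 67.3, 19.6 and 3.03 CPM in control and 102, 88.7, 59.3, 30.8 and 11.8 CPM in mutant cells. Its log2 ratio of bin 5 over bin 1 was -5.14 in control and -3.12 in mutant cells.

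Among the early mesodermal factors, Msc had a log2 ratio of bin 5 over bin 1 of -4.95 in control and -3.64 in mutant cells. In control Lhx2 stood at -2.68, Tcf21 at -1.73 and Tbx1 at -1.07. In mutant cells Tcf21 stood at -3.34, near Myf5 at -3.12, with Lhx2 at -1.92 and Tbx1 at -1.36. Tcf21 peaked in bin 2 in control (22.0 CPM) and in bin 1 in mutant cells (37.6 CPM), and ended at 3.23 and 3.71 CPM. Tbx1 went from 28.5 CPM in bin 1, through 40.4 CPM in bin 2, to 13.54 CPM in bin 5 in control, and from 53.2 to 20.7 CPM in mutant cells, so that it was still present in the most differentiated bin. Lhx2 peaked in bin 3 in control (26.3 CPM) and bin 2 in mutant cells (16.8 CPM), and stood at 1.82 and 3.09 CPM in bin 5. Isl1 was not called in either direction: it had 14.8, 26.6, 33.3, 24.6 and 21.4 CPM in control, and 40.7, 35.7, 38.6, 29.7 and 45.8 CPM in mutant cells. In control it was higher in bin 3 than in bin 1, and its log2 ratio of bin 5 over bin 1 was 0.53 (0.04 to 1.04), against 0.17 (-0.14 to 0.48) in mutant cells.

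Myod1 and Myog were higher in the later bins. Myod1 had 74.1, 144, 226, 549 and 849 CPM in control and 68.7, 98.9, 195, 503 and 800 CPM in mutant cells, a gradual climb that was under way from bin 1. Myog had 9.30, 34.2, 111, 1029 and 4116 CPM in control and 23.3, 35.7, 166, 1173 and 2854 CPM in mutant cells. The steps of Myog were steepest between bins 3 and 4, and its log2 ratio of bin 5 over bin 1 was 8.79 in control and 6.94 in mutant cells, against 3.52 and 3.54 for Myod1.

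**Figure D2:**
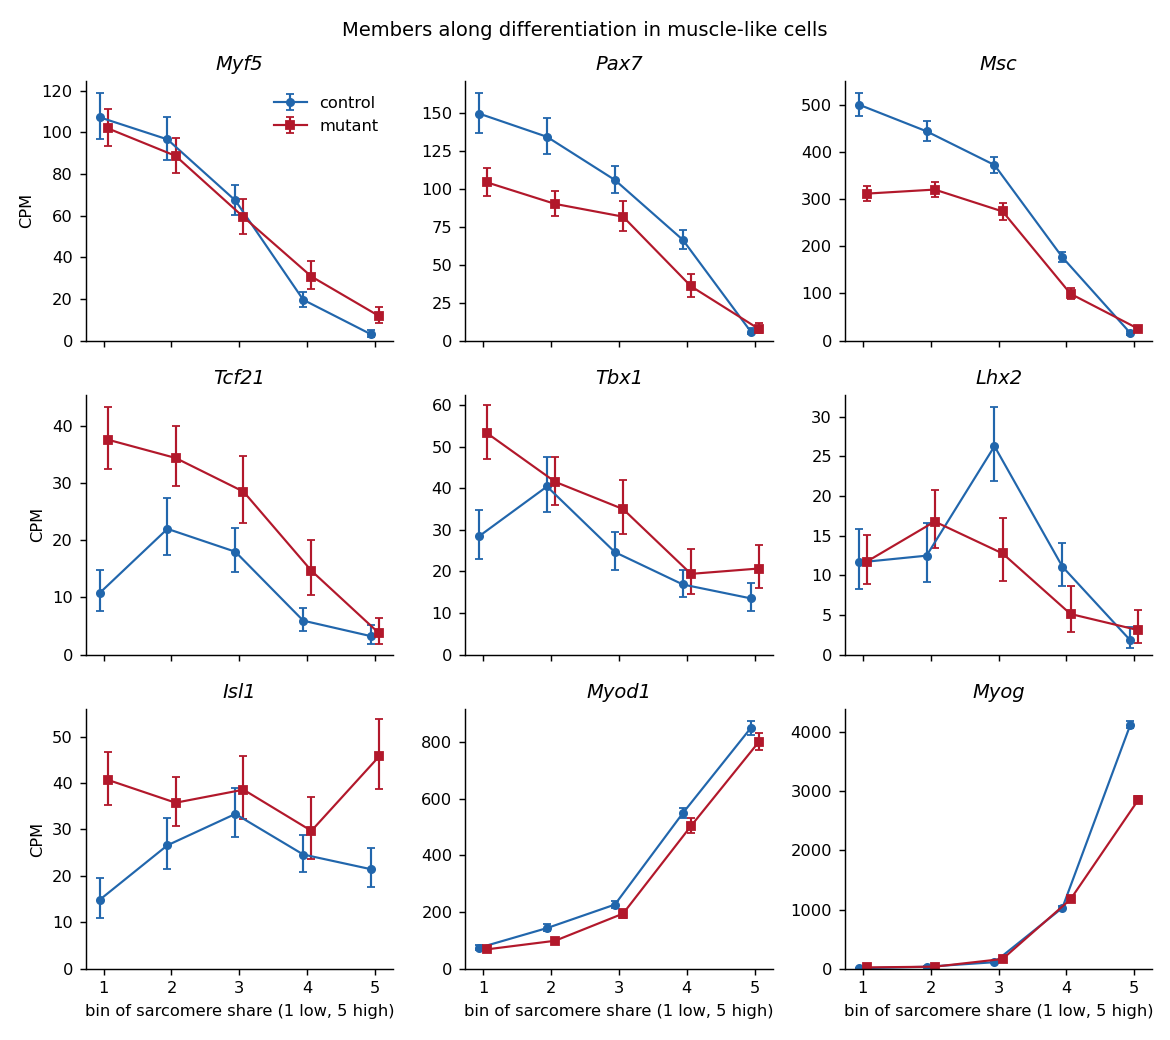
Level of each gene (CPM) in 5 bins of muscle-like cells ordered by their sarcomere share, for control (circles) and mutant (squares), with 95% exact Poisson intervals. Myf5, Pax7 and Msc are lowest in bin 5 in both libraries, Isl1 lies between 14.8 and 45.8 CPM in every bin, and Myod1 and Myog climb to 849 and 4116 CPM in control.

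Weighting the bin numbers by a gene's CPM gives its position, from 1 to 5. A gene with the same CPM in every bin stands at 3, the middle bin. A position near 3, such as that of Isl1, therefore does not by itself mark a stage. In control the order was Myf5 (2.03 ± 0.03, standard error from counting), Msc (2.18 ± 0.01), Pax7 (2.23 ± 0.02), Tcf21 (2.48 ± 0.07), Tbx1 (2.57 ± 0.06), Lhx2 (2.67 ± 0.06), Isl1 (3.09 ± 0.06), Myod1 (4.06 ± 0.01) and Myog (4.74). Of the 8 neighbouring pairs, Msc and Pax7, Tcf21 and Tbx1, and Tbx1 and Lhx2 did not differ beyond their counting error. In the mutant library Myf5 (2.19 ± 0.04), Pax7 (2.23 ± 0.03), Msc (2.23 ± 0.02), Tcf21 (2.26 ± 0.05), Lhx2 (2.42 ± 0.08) and Tbx1 (2.49 ± 0.05) followed each other with no neighbours apart by more than the counting error, and Isl1 (3.02 ± 0.05), Myod1 (4.12 ± 0.01) and Myog (4.60 ± 0.01) came after them in steps larger than the error. Among other muscle genes, Hes6, a target and partner of the muscle bHLH factors, lay just before Myod1 (3.83 in control, 3.78 in mutant), and Mef2c (4.68 in both) and the fusion gene Mymk (4.85 and 4.87) lay beside Myog. Proliferation genes summed to 2822 CPM in bin 1 and 997 CPM in bin 5 in control, and to 2396 and 804 CPM in mutant cells, and G1 cells made up 7.26% and 85.8% of these bins in control. The order was therefore also read in G1 cells alone, with the bins drawn again within them. There too 7 genes came before Myod1 and Myog came last, but the first was Msc, in both libraries. Most G1 cells come from the late bins, so positions among them are on another scale. The part of the cell cycle in the order was not tested.

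**Figure D3:**
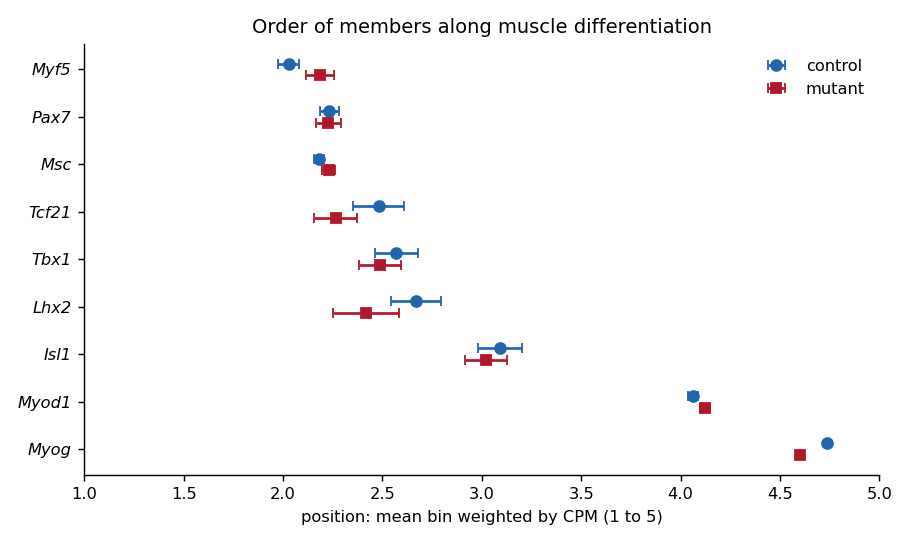
Position of each gene along differentiation (mean bin weighted by CPM, 1 to 5) in control (circles) and mutant (squares); bars are 95% intervals from counting error, smaller than the symbol where none is seen. Myf5, Pax7 and Msc sit near 2, Isl1 near 3, Myod1 near 4 and Myog beyond 4.5. A gene with the same CPM in every bin would also lie at 3.

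Pairs of genes in 1 cell were counted after every muscle-like cell was reduced to 5000 UMIs, which left 870 control and 797 mutant cells. Myod1 and Myog went together: 70.0% (65.9 to 73.8) of control cells with Myod1 also had Myog, against 17.3% (13.4 to 21.8) of cells without it. In mutant cells these shares were 64.5% and 15.6%. Cells with both made up 43.4% of control and 29.2% of mutant muscle-like cells. Pax7 and Myf5, both of progenitors, also coincided, with Myf5 in 31.2% of Pax7 cells and 15.7% of the rest in control, and in 35.4% and 19.9% in mutant cells. Msc cells held Myf5 in 32.4% (control) and 34.2% (mutant), against 8.29% and 14.9% of cells without Msc.

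The differentiation genes were found less often in cells with a progenitor gene than in the rest. Myog was found in 22.6% of control Pax7 cells and 62.9% of the rest, and in 15.8% and 47.2% in mutant cells. It was found in 12.8% of control Myf5 cells and 59.7% of the rest, and in 16.8% and 44.6% in mutant cells. Myod1 was found in 39.4% of control Myf5 cells and 68.0% of the rest, and in 30.6% and 50.1% in mutant cells. They were together in many cells nonetheless: with all UMIs, at unequal depth, Myog was in 49.7% of control Pax7 cells (87.8% of the rest) and Myod1 in 71.1% of Myf5 cells (87.9% of the rest). For Tcf21 the result depended on depth. In thinned cells Myod1 was in 35.9% of its control cells (21.2 to 52.8) against 63.3% of the rest and in 24.7% of its mutant cells (15.8 to 35.5) against 47.6%. With all UMIs the control shares were 81.9% (74.7 to 87.7) and 80.1% (77.1 to 83.0), and the mutant shares 52.8% and 66.2%. Isl1 did not separate cells by Myod1, which was in 57.0% (46.3 to 67.2) of Isl1 cells and 62.7% of the rest in control. With Tbx1 it did so in control, with 16.1% (9.32 to 25.2) against 5.53% (4.03 to 7.38), while in mutant cells the intervals overlapped, at 20.7% (13.8 to 29.0) against 14.3% (11.8 to 17.2). With all UMIs the mutant intervals were apart as well (38.3% against 23.99%). For Msc and Tcf21, bHLH factors of one branch, the intervals overlapped in both libraries (5.36% against 3.55%, and 11.97% against 8.33%), as they did for Lhx2 with Myf5 and with Tcf21, pairs that rest on few thinned cells. With all UMIs these 3 pairs were apart in both libraries: in control Tcf21 was in 21.5% of Msc cells and 6.30% of the rest, and in 42.5% (34.3 to 50.9) of Lhx2 cells and 11.8% (9.55 to 14.3) of the rest, and Myf5 was in 73.3% of Lhx2 cells and 39.0% of the rest.

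**Figure D4:**
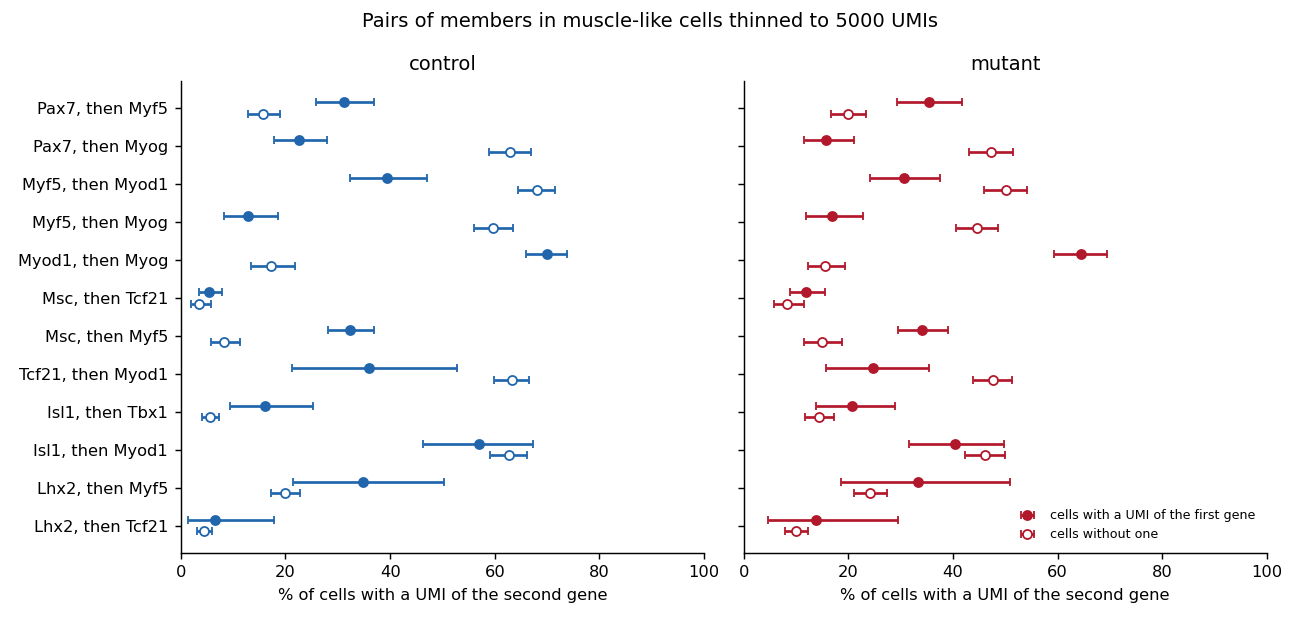
Share of muscle-like cells, reduced to 5000 UMIs, that held a UMI of the second gene of each pair, among cells with the first gene (filled) and without it (open), for control (left) and mutant (right), with 95% Clopper-Pearson intervals. Myod1 and Myog coincide (70.0% against 17.3% in control). Myog is less frequent in control cells with Pax7 (22.6% against 62.9%) or Myf5 (12.8% against 59.7%) than in the rest.

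Between the libraries, 2 of the 9 genes lay beyond 1.5-fold with their whole interval in muscle-like cells, Tcf21 higher and Myog lower in the mutant library. The same rule called 7.88% of 15655 genes higher and 3.92% lower, so 1 in each direction among 9 is close to the background. With cells classed by marker counts instead of clusters neither call held (Tcf21 0.95, Myog -0.22), and in G1 cells Myog stood at -0.52 and was not called. Tcf21 stood at 11.2 CPM in control and 26.3 CPM in mutant cells, a log2 ratio of 1.23 (1.02 to 1.46). Myog stood at 1182 and 683 CPM, a log2 ratio of -0.79 (-0.82 to -0.76). Isl1 (24.7 and 38.3 CPM, log2 ratio 0.64, 0.48 to 0.80) and Tbx1 (23.3 and 36.9 CPM, 0.67, 0.50 to 0.83) were higher in the mutant library, with intervals that reach below 1.5-fold. Myf5 was higher by less (0.36, 0.25 to 0.48). Myod1 was lower (-0.54, -0.59 to -0.50), as were Msc (-0.26, -0.31 to -0.20) and Pax7 (-0.26, -0.36 to -0.16). For Lhx2 (-0.22, -0.48 to 0.04) the interval held 0 with all cells summed.

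The muscle-like classes differed in make-up along differentiation. Bins 1 and 2 held 14.03% and 14.8% of control cells but 26.4% and 25.4% of mutant cells, while bins 4 and 5 held 26.8% and 23.98% of control and 12.8% and 15.8% of mutant cells. The sarcomere genes that define the bins themselves had a median log2 ratio of 0.55 between the libraries. In bin 5 their median share was 2.00% in control and 2.62% in mutant cells. There 16 genes of fusion, junction and muscle metabolism summed to 3411 and 2586 CPM. Whether a bin is the same stage in both libraries was not tested, which limits the ratios by bin and at equal weight. With each bin given equal weight, Tcf21 stayed beyond 1.5-fold (0.99, 0.77 to 1.21), but Myog did not (-0.32, -0.35 to -0.29), and Myod1 stood at -0.14 (-0.19 to -0.10). Myf5 then stood at -0.01 (-0.12 to 0.11), and Msc and Pax7 were lower than before, at -0.55 (-0.61 to -0.49) and -0.53 (-0.63 to -0.43). Isl1 stood at 0.66 (0.50 to 0.82) and Tbx1 at 0.45 (0.29 to 0.62). Lhx2 stood at -0.35 (-0.62 to -0.09), no longer holding 0, with -1.04 in bin 3 and -1.11 in bin 4. Within bins, Tcf21 was higher in the mutant library in bins 1 to 4, most in bin 1 (10.7 against 37.6 CPM, 1.80, 1.29 to 2.35). Isl1 had its greatest ratios at both ends, 1.46 (1.01 to 1.93) in bin 1 and 1.09 (0.73 to 1.47) in bin 5. For Myf5 the intervals held 0 in bins 1 to 3, and mutant cells had more in bin 4 (0.65) and bin 5 (3.03 against 11.8 CPM, 1.95). Myog in bin 5 was 4116 against 2854 CPM, a log2 ratio of -0.53, while in bins 1, 3 and 4 mutant cells had more (1.32, 0.57 and 0.19).

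**Figure D5:**
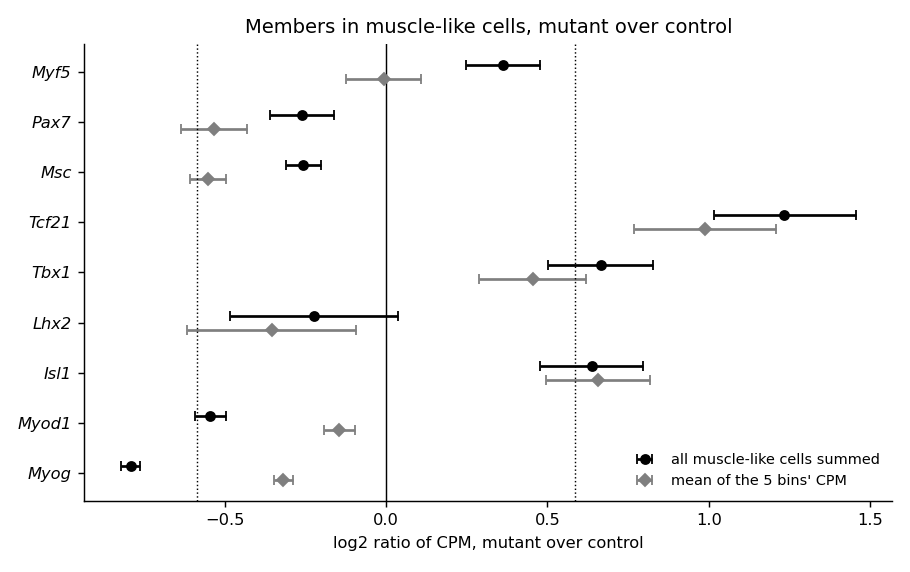
Log2 ratio of CPM, mutant over control, in muscle-like cells, for all cells summed (black circles) and for the mean of the 5 bins (grey diamonds), with 95% counting intervals; dotted lines mark 1.5-fold. Tcf21 lies beyond the line both ways, and Myog only with all cells summed.

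Equal depth and sex gave similar values for Tcf21 and Myog. In cells reduced to 5000 UMIs, 4.48% (3.21 to 6.08) of control and 10.2% (8.15 to 12.5) of mutant muscle-like cells had a Tcf21 UMI (log2 ratio of the thinned levels 1.46), and among female-like cells the log2 ratio was 1.05, with -0.72 for Myog. Tbx1 depended more on both, at 1.28 in thinned cells and 0.30 in female-like cells. Tcf21 is a mesenchymal gene as well, and the 13 mesenchyme markers were lower in sum in mutant muscle-like cells (621 CPM in control, 332 in mutant; 2 beyond 1.5-fold higher and 5 lower, none at 0). The 9 mesothelium markers summed to 13.9 and 18.2 CPM, with Msln at 0 in mutant cells, and the 10 cartilage markers to 32.3 and 103 CPM, with 5 of 7 tested higher and Acan at 0 in mutant cells. Over all genes tested in these cells 7.88% were called higher and 3.92% lower. The 13 mesenchyme markers were lower in mutant mesenchyme-like cells too (12126 and 3827 CPM, 9 lower and none higher). In that class 5.79% of all genes tested were called lower. The part of these markers in the Tcf21 value of muscle-like cells was not tested.

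Other regulators were read in the same cells from lists chosen with earlier results of these data known, so their counts only describe. Over all genes tested there 7.88% were called higher and 3.92% lower. Of 19 partner factors of head muscle, 6 were beyond 1.5-fold higher in the mutant library and 1 lower, with a median log2 ratio of 0.25 against 0.02 over all genes tested. The higher ones included Eya1 (63.5 and 131 CPM, 1.05), a transcriptional co-activator, Six2 (60.3 and 114 CPM, 0.92), Ebf1 (36.4 and 97.3 CPM, 1.42) and Ebf2 (1.63 and 12.7 CPM, 2.96), and Nkx2-5, a heart field factor, was the lower one (7.18 and 3.50 CPM, -1.04). Eya4 stood at 235 and 227 CPM and was highest in muscle-like cells of both libraries. Of 15 genes for Myf6, E proteins and bHLH inhibitors, 7 were higher and none lower, with a median of 0.70. The 7 were Id1 (146 and 248 CPM, 0.76), Id2 (74.4 and 192 CPM, 1.37), Id4 (3.87 and 10.5 CPM, 1.44), Hes1 (0.75), Hey1 (0.76), Twist1 (3.14 and 13.6 CPM, 2.11) and Bhlhe41 (3 UMIs in control, 116 in mutant). The inhibitors Id3 (330 and 462 CPM, 0.48), Mdfi (0.70) and Heyl (-0.21) were not called. The E proteins Tcf3, Tcf4 and Tcf12 had ratios of 0.02, -0.23 and -0.08. Myf6, the fourth muscle bHLH factor, was hardly detected, at 1.08 and 1.34 CPM. Markers of other cell types also moved in these muscle-like cells. The 15 endothelium markers summed to 45.9 and 94.8 CPM (10 called higher, none lower), and the 8 hepatoblast markers to 0.774 and 22.6 CPM (5 of 5 tested higher). Of 10 cardiomyocyte markers tested 5 were higher, though their sum was lower (392 and 227 CPM). Endothelium-like cells were 147 in control and 700 in mutant, and hepatoblast-like cells 0 and 47. Hepatoblast markers summed to more in mutant cells of every other class compared, such as mesenchyme-like (2.82 and 36.9 CPM) and blood-led cells (0.644 and 17.8 CPM). Several of the genes named have their highest level elsewhere in both libraries, such as Twist1 in mesenchyme-like, Id4 in neuron-like and Ldb2 in endothelium-like cells. The part of other cell types in these list values was not tested. Neither was that of the differing make-up along the bins, which were not weighted equally here.

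Of 11 genes of cell-cycle exit and differentiation linked to the muscle bHLH factors, none was called higher and 4 were called lower. Over all genes tested in muscle-like cells these shares were 7.88% and 3.92%. The 4 were Rb1 (-0.79), the acetylcholine receptor subunit Chrna1 (137 and 49.4 CPM, -1.47), and the fusion genes Mymk (-0.78) and Mymx (-0.80). The median of the list was -0.43, with 2 of the 11 intervals wholly above 0 and 9 below it. Myh3 (4390 and 5373 UMIs) and Cdkn1a (3333 and 3979 UMIs) were higher without being called. Of the 25 sarcomere genes 7 were called higher and 3 lower, with a median of 0.55. Of 16 genes of fusion, junction and muscle metabolism none was called higher and 8 were called lower, with a median of -0.79. Among the 26 muscle markers 3 were called higher and 11 lower. These lists share some genes. Genes such as Mymk and Myh3 lie late along differentiation, where mutant cells were fewer. The part of that make-up in these list values was not tested. The 16 proliferation genes held none beyond 1.5-fold, with a median of -0.05. Of 8 trunk and limb factors, Pax3 was higher (2.24 and 7.56 CPM, 1.76) and Tbx5 lower (30 and 3 UMIs), and Lbx1, which marks migrating limb and tongue muscle precursors, was at 11.4 and 11.1 CPM. Of 9 Tbx1-linked genes tested, 4 were higher, among them Fgf10 (15.1 and 36.4 CPM, 1.27), and the other 3 (Foxc2, Cyp26a1 and Cyp26b1) had at most 5 UMIs in control cells. Of 8 LIM-domain partners tested, Ldb2 (8.09 and 15.8 CPM, 0.97), Pou4f1 (28 and 62 UMIs, 1.40) and Lhx3 (0 and 20 UMIs) were higher, while Ldb1, the usual partner of Isl1 and Lhx2, stood at 56.2 and 54.2 CPM.

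Outside muscle, Isl1 was called in 4 of the other classes. It stood at 8.16 CPM in control and 23.99 CPM in mutant mesenchyme-like cells, a log2 ratio of 1.56, where 4.16% of all genes tested were called higher. It stood at 1.58 and 14.3 CPM in the Adh1-led class (3.18; 6.87% called higher) and at 3.70 and 14.1 CPM in endothelium-like cells (1.93; 4.78% called higher). In the blood-led class, which serves as background, it had 1.29 and 4.60 CPM from 6 and 23 UMIs, a ratio of like size (1.84, 0.50 to 3.42) that was not called. In mesothelium-like cells, 70 in control and 65 in mutant, it went the other way, with 56.1 and 7.19 CPM (-2.96; 2.50% called lower). At equal depth the mesothelial shares were 17.1% (9.18 to 28.0) and 6.35% (1.76 to 15.5), whose intervals overlap, and the median depth there was 28114 and 14430 UMIs. In neuron-like cells, its main site, the log2 ratio was 0.04 (-0.06 to 0.14). That value sums clusters that went opposite ways, cluster 10 higher and cluster 6 lower in the mutant library. After reduction to 5000 UMIs, the share of cells with an Isl1 UMI was 3.65% and 8.66% in mesenchyme-like cells, 0.556% and 8.66% in Adh1-led cells and 2.08% and 5.84% in endothelium-like cells. In blood-led cells, which should lack the gene, it was 0.588% and 3.53%, at medians of 25412 and 27322 UMIs per cell against 20203 and 17038 in endothelium-like cells. The intervals of the 3 mutant shares (6.31 to 11.5, 4.403 to 14.97 and 4.18 to 7.90) overlap that of mutant blood-led cells (1.31 to 7.52), so these shares are not separate from background. In CPM the mutant levels of the 3 classes lay above that of mutant blood-led cells (4.60, 2.92 to 6.90). The blood-led class itself differed in make-up between the libraries. Its macrophage markers summed to 5345 CPM in control and 2301 CPM in mutant (9 of 10 lower). Its erythroid markers summed to 3588 and 13999 CPM (4 of 8 higher), where 3.51% of all genes were called higher and 8.69% lower. Background was therefore not read from the same mix of cells in both libraries. Over all filtered cells Isl1 stood at 35.7 CPM in control and 55.8 CPM in mutant, and the part of free transcripts in these low levels was not tested. How the Cre construct sits in the Isl1 locus is not described in the sources used here, and UMIs of such an allele cannot be separated. Markers in the mesenchyme-like, Adh1-led and mesothelium-like classes also differed between the libraries, as given below.

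Tcf21 differed in opposite directions outside muscle. It was lower in mutant cells of the Adh1-led class (229 and 114 CPM, -1.01; 2.70% called lower), where it was found in 56.1% of control and 30.7% of mutant cells at equal depth. Other markers also moved in that class, as did Isl1, where 6.87% of all genes tested were called higher. Smooth muscle and mural markers summed to 670 and 2920 CPM (9 of 10 higher) and cartilage markers to 88.1 and 384 CPM (5 of 7 tested higher). Endothelium markers summed to 133 and 319 CPM (8 of 14 tested higher). The part of these markers in the Tcf21 and Isl1 values there was not tested. Without integration the Adh1-led class held 356 control and 48 mutant cells, and at resolution 0.8 the Tcf21 ratio was -0.49 (-0.66 to -0.31), which is not called. Tcf21 was higher in mesothelium-like cells (22.1 and 213 CPM, 3.27, where 7.33% of all genes were called higher). Without the 3 highest cells the mesothelial values were 16.1 and 129 CPM, so a few cells carry part of the difference but not its direction. Other markers moved in the mesothelium-like class too. Cardiomyocyte markers summed to 459 and 1358 CPM (5 of 6 tested higher, none lower). Smooth muscle and mural markers summed to 143 and 618 CPM (4 of 8 tested higher, none lower). Mesothelium markers summed to 2446 and 2855 CPM (1 of 9 higher). The part of these markers in the mesothelial Tcf21 and Isl1 values was not tested. In mesenchyme-like cells the log2 ratio of Tcf21 was -0.03 (-0.28 to 0.22). Markers of that class moved as well. Mesenchyme markers summed to 12126 and 3827 CPM there (9 of 13 lower, none higher). Cartilage markers summed to 1798 and 974 CPM (8 of 10 lower, none higher), where 5.79% of all genes tested were called lower. The part of these markers in the mesenchymal Isl1, Msc and Tcf21 values was not tested. Msc was higher in mutant mesenchyme-like cells (6.90 and 16.5 CPM, 1.25), with 0.34 (-0.43 to 1.04) among female-like cells alone, and lower in blood-led cells (29 and 9 UMIs, -1.79; 8.69% called lower), where 23 of the 29 control UMIs lay in 3 cells. Lhx2 was lower in neuron-like cells (128 and 57.7 CPM, -1.15; 7.62% called lower). In cluster 10 it had 324 UMIs in control cells, 218 of them in 3 cells, and 13 in mutant cells, while in cluster 6 it stood at 87.3 and 89.9 CPM.

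Myod1 and Myog were called lower in mutant cells of several classes that are not muscle: both in mesenchyme-like (5.79% called lower), endothelium-like (4.63%), neuron-like and blood-led cells, and Myog also in epithelium-like (3.82%) and Adh1-led cells. Their levels there were small and often rested on few cells. In control endothelium-like cells 35 of 40 Myod1 UMIs lay in 3 cells, and without the 3 highest cells the levels were 1.54 and 1.15 CPM for Myod1 and 5.24 and 3.66 CPM for Myog. In control blood-led cells 112 of 149 Myog UMIs lay in 3 cells. Myog, for example, had a UMI in 6.60% of control mesenchyme-like cells, 6.97% of epithelium-like cells and 5.88% of neuron-like cells at equal depth, against 6.47% of blood-led cells, so these shares are at background and are not read as expression. In control cardiomyocyte-like and neural crest-like cells, 54 of each, the share was higher, at 22.2% (12.04 to 35.6) and 18.5% (9.25 to 31.4). These shares rest on 20 and 21 Myog UMIs, with at most 2 in a cell. Median depth was 14424 and 14682 UMIs there, against 25412 in control blood-led cells. The part of depth was not tested, and these shares are not read as expression either. Myog over the whole library was 449 CPM in control and 197 CPM in mutant, which moves with its lower levels in mutant cells of these classes. Its part in them was not tested.

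The genes most like each of the 9 were sought over 29 profiles (each cluster with at least 20 cells, in each library), by Pearson r of log2(CPM + 10), as a description, since clusters of 1 library share depth and source. Myf5, Pax7 and Msc had each other among their nearest 3 (r of 0.94 to 0.95), and Tll2, a secreted metalloprotease, lay beside Myf5 and Pax7 (0.94 for both). The nearest to Msc was Gm9947 (0.97), which overlaps it on the opposite strand, and whether counting used the strand is not stated. Myod1 was nearest to Vgll2, a cofactor of TEAD proteins in muscle (0.99), the cadherin Cdh15 and the sarcomere gene Neb (both 0.98). Myog was nearest to Gm28653, Chrna1 (both 0.96) and Neb (0.95). Isl1 followed neuronal genes, with Elavl2 (0.93), Thsd7b (0.91) and Pnma2 (0.90), and Lhx2 followed Tcerg1l (0.92), Ube2ql1 (0.91) and Prdm8 (0.91). Tcf21 was nearest to Pde1a (0.89), Gm20560 (0.88) and the lysyl oxidase Lox (0.87). Tbx1, spread over several tissues, had the loosest neighbours, Pcsk6 (0.75), Fzd4 (0.74) and Lrp4 (0.73).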

How the data were processed

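Cells sorted for eYFP were profiled by droplet RNA sequencing, 1 library per genotype. The authors processed the reads with Cell Ranger 7.1.0 against mm10 (GRCm38) and deposited raw UMI counts per gene for each called cell: 66935720 UMIs in 4505 control cells and 73915525 in 5357 mutant cells. Whether intronic reads and strand were used is not given in the sources used here. Filtering kept 63153191 and 69717583 UMIs. Cells were integrated by canonical correlation anchors and clustered in Seurat 5.3.0 (R 4.3.3; 2000 variable genes leaving out 75 genes, these 9 and the factor lists among them; 30 components, 20 neighbours, resolution 0.3, 15 clusters, cell-cycle scores regressed out). A class was named where at least 3 markers were raised. Clusters with Adh1 or Hbb-bs among their first 3 leading genes were instead called Adh1-led or blood-led, whatever their markers. The Adh1-led cluster had 3 of 10 smooth muscle and mural markers raised. Names are rebuilt and may differ from the study's. Doublets were kept, and removal of high Scrublet scores (scanpy 1.11.5; 73 control and 123 mutant cells, 0.8% per 1000 deposited cells) was an alternative.

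UMIs were summed per class and library (CPM). Intervals (95%) were exact Poisson for levels and Clopper-Pearson for shares, and those of ratios came from the exact binomial split of the summed UMIs; they cover counting error only, and a count of 0 allows up to 3. A gene was called between libraries or bins when at least 20 UMIs were counted and the whole interval lay beyond 1.5-fold. Thinning to 5000 UMIs left out 61 control and 173 mutant cells. A cell was female-like with Xist and no Y-linked UMI. The ratio and position scripts were tested on simulated data. The genes and lists were chosen with earlier results of these data known. Named genes are the 9, the 3 most alike to each, and, of each list, those beyond 1.5-fold or needed as examples; some genes of the lists are not reported here. TMM scaling came from edgeR 4.0.16 (an alternative), and the rest was done in scipy 1.17.1, numpy 2.4.6, pandas 2.3.3 and matplotlib 3.10.9 under Python 3.11.15.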

Additional observations from a re-analysis of the deposited data

Results flagged for a closer look

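Several ratios of mutant over control went one way in some classes and the other way, or nowhere, in others; the differences between classes were not tested. Isl1 had log2 ratios of 1.56 in mesenchyme-like, 3.18 in Adh1-led and 1.93 in endothelium-like cells and of -2.96 in mesothelium-like cells, while in neuron-like cells the ratio was 0.04 (-0.06 to 0.14). The neuron-like value sums cluster 10, where Isl1 was higher in the mutant library, and cluster 6, where it was lower. Msc had 1.25 in mesenchyme-like and -1.79 in blood-led cells, the latter from 29 and 9 UMIs. Tcf21 had 1.23 in muscle-like and 3.27 in mesothelium-like cells and -1.01 in Adh1-led cells. Markers in the mesenchyme-like, Adh1-led and mesothelium-like classes also differed between libraries, and their part in these values was not tested.

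Cells outside the filter held Isl1 at 81.7 CPM in control and 69.8 CPM in mutant, above the 35.7 and 55.8 CPM of the filtered cells. No main comparison used them, and some entered the alternative with at least 1000 genes.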

How the results depend on the processing

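No paired analysis was possible because each genotype had 1 library. The alternatives were chosen with earlier results of these data known, and 1, resolution 0.8 with the Msc-led cluster added to muscle-like cells, was chosen after seeing the clusters. The count of genes with their highest class in muscle-like cells was 5, and fell to 2 at resolution 0.8 and to 2 with classes from marker counts. At resolution 0.8 an Msc-led cluster had too few raised markers to be named muscle-like. With it added the count was 5, which gives no support because Msc, Myf5 and Pax7 are among its leading genes. With classes from marker counts Msc, Myf5 and Pax7 were highest in neural crest-like cells of both libraries. The count of genes beyond 1.5-fold in muscle-like cells was 2, and 1 (Tcf21) beyond 2-fold or with the 5 bins weighted equally. It was 3 at resolution 0.8 (with Isl1) and in thinned cells (with Tbx1). With classes from marker counts the 2 were Isl1 and Pax7, and in G1 cells Isl1 and Tcf21. Cells with both Myod1 and Myog made up 59.0% of control and 43.5% of mutant cells with all UMIs. With classes from marker counts Myod1 and Myog in mesenchyme-like cells turned to 0.38 and 0.70, and with at least 1000 genes Myod1 in endothelium-like cells turned to 0.12; the cause was not tested. Of 153 alternative ratios in muscle-like cells 150 kept their sign, and of 545 in other classes 504 did. In all 11 alternatives 7 genes came before Myod1, but 100 of 198 alternative positions moved: in control G1 cells Lhx2 stood at 1.59, Msc at 1.34 and Tbx1 at 3.25, after Isl1 (2.59). The bins were drawn again within G1 cells, so these positions are not on the scale of the main ones. Myf5 was not first in G1 cells of either library, or in mutant cells that were female-like or classed by marker counts. The mean over cells of UMIs per 10000 has no interval and gave no count. TMM scaling moved all ratios of a class by at most 0.15. Depth limits Lhx2, Tcf21 and all levels outside their main classes.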
